A study of Saccharomyces cerevisiae with 12 samples.

Results

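The 8 yeast genes described here make guanine nucleotides from inosine monophosphate (IMP) or recover purine bases and nucleotides. They are IMD2, IMD3, IMD4, GUA1, AAH1, HPT1, APT1 and AMD1, and they are 8 of the 7130 gene identifiers counted. They were chosen by gene identifier for their place in the pathway, with earlier results of these data known. All 8 passed the filter on low counts in RNA, in ribosome-protected fragments (footprints) and in the joint model of both. Cultures of budding yeast had either grown overnight in 10 µM radicicol, which inhibits the chaperone Hsp90, or overnight in medium that lacked it. Both kinds of culture were then diluted to an OD600 of 0.001 and grown for another 24 h before harvest, and by the protocol only the overnight step contained the drug. Each of 4 groups held 3 libraries: RNA after radicicol, footprints after radicicol, untreated RNA and untreated footprints. By the protocol 3 colonies were each split over both media, but whether libraries of 1 number share a colony is not stated. Strain and genotype are not given in the sources used here, and no density at harvest was stated.

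IMP is the branch point of purine synthesis. IMP dehydrogenase, encoded by IMD2, IMD3 and IMD4, commits it to the guanine branch by forming xanthosine monophosphate, and GMP synthetase, encoded by GUA1, turns that into GMP. Salvage runs beside this route, so that bases taken up or released in the cell return to the nucleotide pool. IMD2 is known for its strong induction when GTP runs low, as after mycophenolic acid, an inhibitor of the enzyme, and the switch works through the choice of transcription start site.

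Library totals ranged from 2067285 to 2481336 counts in radicicol RNA, 1500265 to 1639436 in radicicol footprints, 737922 to 2029914 in untreated RNA and 1155966 to 1476787 in untreated footprints. The 8 genes together had between 566 and 1912 counts in a library. The smallest library was untreated RNA replicate 3. Values are CPM, read counts scaled to library size with TMM factors over the 6 libraries of a kind, so every change is a change in proportion and not in molecules per cell. Counting left out reads that map to more than 1 place. The 3 IMD genes are close paralogs, and IMD2 also resembles the pseudogene IMD1, so their counts hold only the reads that could be placed and their levels are uncertain. IMD1 (YAR073W) had 0 to 3 counts in each library. None of the 8 genes overlapped a feature of another gene on either strand.

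After radicicol, IMD2 changed most of the 8 genes, with 2.99-fold more RNA and 2.66-fold more footprints. The GMP synthetase gene GUA1 and the most abundant IMP dehydrogenase gene, IMD3, rose 1.27-fold and 1.24-fold in footprints. RNA of APT1, which encodes adenine phosphoribosyltransferase, fell. AAH1, HPT1, AMD1 and IMD4 passed no test. A gene was called at an adjusted p below 0.05 (Benjamini-Hochberg, over all genes) in the quasi-likelihood test of edgeR. In RNA 2 of the 8 were called, 1 higher and 1 lower, where 13.2% of the 5578 genes tested were called, 7.17% higher and 6.06% lower. In footprints 3 of the 8 were called, each of them higher, where 13.4% of the 5090 genes tested were called, 8.53% higher and 4.85% lower. With upper-quartile factors in place of TMM, the higher genes made up 52.4% of the footprint calls (63.7% with TMM). With so few members these shares are a description only. The footprint calls of GUA1 and IMD3 lay near the threshold and held in only 4 and 2 of 12 alternative settings. The APT1 call in RNA held in 10 of them, and IMD2 was called in RNA and in footprints in all 12.

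**Figure D1:**
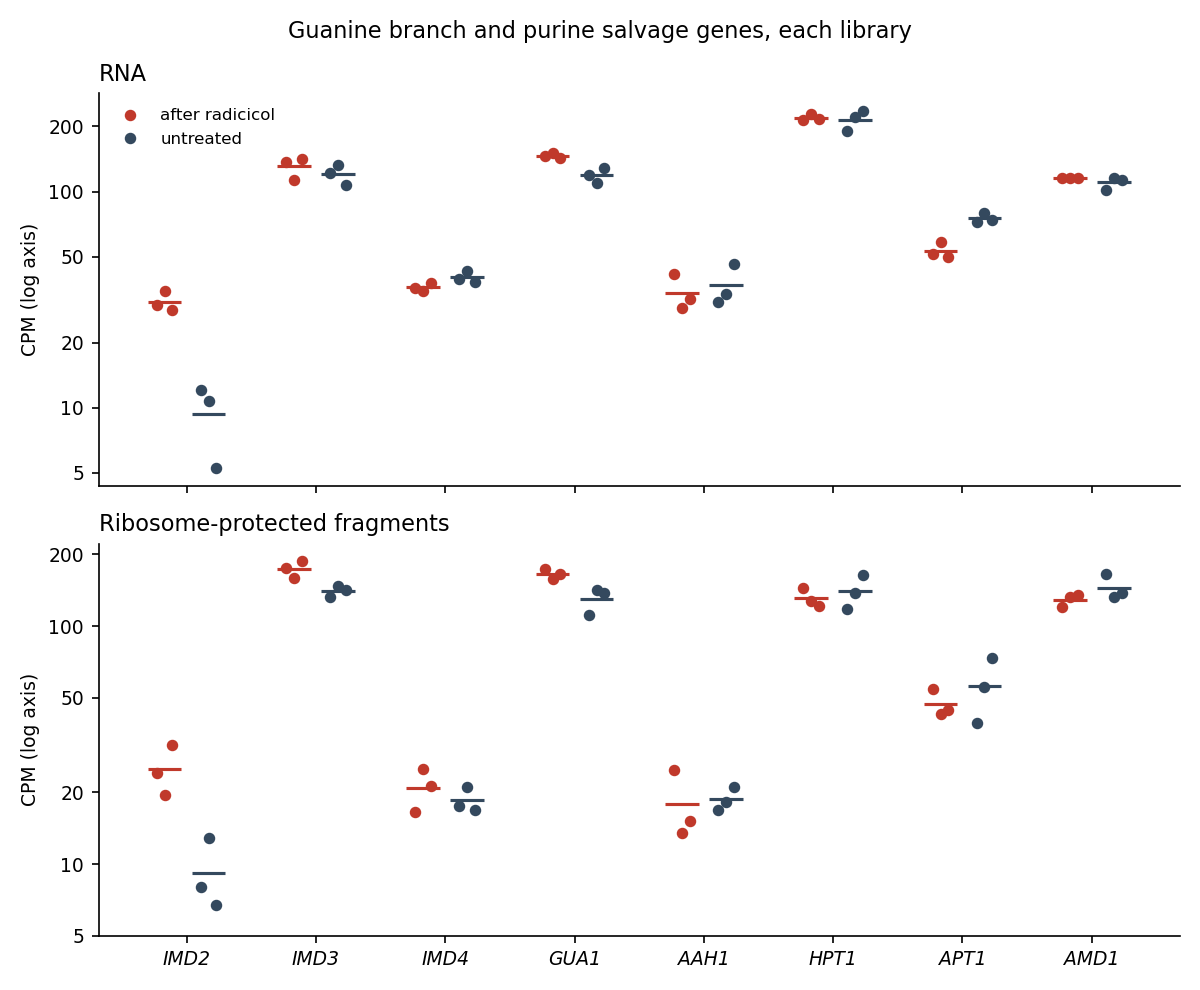
Normalised counts (CPM, log axis) of the 8 genes in every library, for RNA (top) and footprints (bottom). Points are libraries after radicicol (red, left) and untreated (dark, right) and lines are means of 3; for IMD2 the radicicol RNA libraries sit between 28.2 and 34.7 CPM and the untreated ones between 5.28 and 12.1 CPM.

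IMD2 (YHR216W, chromosome VIII, 554396 to 555967, plus strand, R64-1-1) had 29.8, 34.7 and 28.2 CPM of RNA after radicicol, against 12.1, 10.7 and 5.28 CPM in untreated cultures. These rest on 74, 77 and 60 counts after radicicol and on 23, 21 and 4 counts in untreated cultures. Every radicicol library was above every untreated one, and the lowest untreated value came from the smallest library. The mean was 30.9 ± 3.39 CPM after radicicol and 9.36 ± 3.60 CPM untreated (SD, n = 3 each). The fitted log2 change was 1.58 (SE 0.23), or 2.99-fold with a 95% interval of 2.14 to 4.16, and edgeR's adjusted p was 2.20e-05. Without untreated replicate 3 the log2 change was 1.43, with an adjusted p of 0.000338 in the same test.

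Footprints on IMD2 stood at 24.1, 19.6 and 31.6 CPM after radicicol, against 8.0, 12.9 and 6.76 CPM untreated. The counts behind them were 35, 29 and 52 after radicicol and 10, 19 and 8 untreated. Here too the groups did not overlap. The means were 25.1 ± 6.10 CPM after radicicol and 9.21 ± 3.23 CPM untreated (SD, n = 3 each). The log2 change was 1.41 (SE 0.28), or 2.66-fold with an interval of 1.77 to 4.0, with an adjusted p of 0.000801 in edgeR's test. Over 12 alternatives the adjusted p ranged from 2.46e-07 to 0.000931 for RNA and from 2.26e-05 to 0.0116 for footprints, so the call held in each of them.

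IMD3 (YLR432W, chromosome XII, 1002557 to 1004128, plus strand) had the highest level per length of the 3 IMP dehydrogenase genes in every group. Its RNA was 137, 113 and 142 CPM after radicicol, against 122, 133 and 107 CPM untreated. The groups overlapped, and the fold of 1.07 had a 95% interval of 0.899 to 1.27. Footprints on IMD3 were 175, 159 and 188 CPM after radicicol, against 132, 148 and 142 CPM untreated, without overlap. Their log2 change was 0.31 (SE 0.10), or 1.24-fold, with an adjusted p of 0.0484 in edgeR's test. That call ended whenever 1 of the 6 libraries was left out (adjusted p = 0.0553 to 0.20), with RLE factors (0.0504) and with DESeq2 (adjusted p = 0.189). It also ended in edgeR with a term for the replicate number (replicate block, adjusted p = 0.0808).

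IMD4 is a paralog with an intron (YML056C, chromosome XIII, minus strand, exons at 163717 to 164176 and 162194 to 163308). RNA of IMD4 was 35.9, 34.7 and 37.6 CPM after radicicol, against 39.3, 43.0 and 38.3 CPM untreated. The groups parted by a small margin in the direction opposite to IMD2, and the difference did not pass the test (log2 -0.17, SE 0.16, edgeR adjusted p = 0.527). Footprints on IMD4 averaged 20.9 ± 4.24 CPM after radicicol and 18.5 ± 2.20 CPM untreated (SD, n = 3 each), with overlapping libraries and a fold interval of 0.803 to 1.57. Reads across the junction touch both features and were not counted. The intron, at 163309 to 163716, holds the small nucleolar RNA gene SNR54, which had its own feature and added nothing to these counts.

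**Figure D2:**
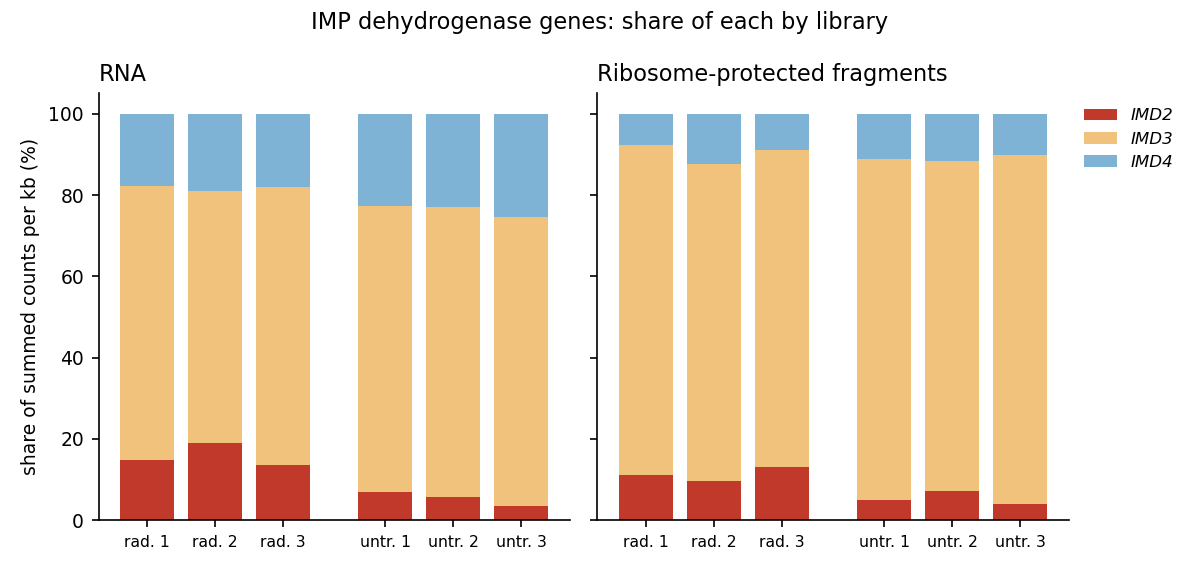
Share (%) of IMD2, IMD3 and IMD4 in the summed counts per kilobase of the 3 genes, one bar per library, for RNA (left) and footprints (right), with radicicol (rad.) left of untreated (untr.). The red IMD2 share is 13.6% to 19.0% of RNA after radicicol and 3.51% to 6.97% in untreated libraries.

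A share within a library does not depend on how libraries are scaled. It does depend on which reads of these close paralogs could be placed, and that was not measured. IMD2 made up 14.7%, 19.0% and 13.6% of the summed IMD RNA counts per kilobase after radicicol, against 6.97%, 5.76% and 3.51% untreated. The mean share was 15.8% after radicicol and 5.41% untreated, a difference of 10.4 percentage points. In footprints the share was 11.2%, 9.60% and 13.1% after radicicol, against 5.08%, 7.09% and 4.08% untreated, a difference of 5.89 points. In both kinds all 3 radicicol libraries lay above all 3 untreated ones, and the two-sided exact permutation test gave p = 0.1, the smallest value that 3 against 3 libraries allow. IMD3 kept the largest part, with 66.0% of IMD RNA after radicicol and 70.9% untreated, and 79.1% of IMD footprints after radicicol and 83.6% untreated.

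The 3 IMD genes together had 125.6 ± 8.44 CPM per kilobase of RNA after radicicol and 108.2 ± 11.6 untreated (SD, n = 3 each), with overlapping libraries (two-sided exact permutation p = 0.2). Of that difference of 17.5, IMD2 contributed 13.7, IMD3 6.39 and IMD4 -2.63 CPM per kilobase. In footprints the sum was 140.0 ± 12.1 CPM per kilobase after radicicol and 107.0 ± 7.77 untreated (SD, n = 3 each), without overlap (exact p = 0.1, the smallest possible). Of that difference of 33.0, IMD3 contributed 21.3, IMD2 10.1 and IMD4 1.54. These parts are given as a description and hold only the reads that could be placed. The RNA sums overlapped, the footprint-to-RNA ratio passed its test for none of the 3 genes, and the split itself was not tested between RNA and footprints.

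GUA1 (YMR217W, chromosome XIII, 701790 to 703367, plus strand) encodes the enzyme of the next step, GMP synthetase. Its RNA was 146, 150.1 and 143 CPM after radicicol, against 119, 109 and 128 CPM untreated, and the groups did not overlap. The difference missed the threshold (log2 0.32, SE 0.11, edgeR adjusted p = 0.0575). Leaving out untreated replicate 3 brought it to an adjusted p of 0.0480 in the same test. In 11 of 12 alternatives it stayed uncalled, with an adjusted p of 0.185 in DESeq2 and 0.224 in edgeR without radicicol replicate 2. Footprints on GUA1 were 173, 157 and 166 CPM after radicicol, against 111, 142 and 138 CPM untreated, again without overlap. They rose by a log2 change of 0.34 (SE 0.11), or 1.27-fold with an interval of 1.09 to 1.48, and edgeR's adjusted p was 0.0353. This call ended without any 1 of the radicicol libraries or without untreated replicate 1 or 3 (adjusted p = 0.0615 to 0.156), and with DESeq2 (adjusted p = 0.143). It also ended with the replicate block in edgeR (adjusted p = 0.0545). With upper-quartile factors neither GUA1 (adjusted p = 0.0727) nor IMD3 (0.10) passed in footprints.

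APT1 (YML022W, chromosome XIII, 228937 to 229500, plus strand) encodes the enzyme that joins adenine to phosphoribosyl pyrophosphate to give AMP. APT1 RNA was 51.6, 58.2 and 49.8 CPM after radicicol, against 72.4, 79.3 and 73.9 CPM untreated. Every radicicol library lay below every untreated one. The log2 change was -0.50 (SE 0.13), a fold of 0.705 with an interval of 0.586 to 0.849, and edgeR's adjusted p was 0.00973. The call ended without radicicol replicate 3 (adjusted p = 0.0570), and DESeq2 gave an adjusted p of 0.0508. Footprints on APT1 were 54.4, 42.5 and 44.4 CPM after radicicol, against 39.2, 55.6 and 73.5 CPM untreated. The untreated footprint libraries spread so widely that they enclosed all radicicol ones, and the log2 change of -0.25 (SE 0.18) did not pass (adjusted p = 0.441 in edgeR's test).

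HPT1 (YDR399W, chromosome IV, 1270068 to 1270733, plus strand) encodes hypoxanthine-guanine phosphoribosyltransferase, which returns hypoxanthine and guanine to IMP and GMP. Its RNA averaged 219.5 ± 7.24 CPM after radicicol and 215.3 ± 22.8 CPM untreated (SD, n = 3 each), and its footprints 130.8 ± 12.2 CPM after radicicol and 140.2 ± 22.8 CPM untreated. The fold intervals were 0.886 to 1.19 for RNA and 0.789 to 1.11 for footprints, and the libraries of the groups overlapped in both. AAH1 (YNL141W, chromosome XIV, 359596 to 360639, plus strand) encodes adenine deaminase, which turns adenine into hypoxanthine and so feeds HPT1. AAH1 RNA was 34.1 ± 6.61 CPM after radicicol and 37.0 ± 8.12 CPM untreated (SD, n = 3 each), and AAH1 footprints were 17.8 ± 6.08 CPM after radicicol and 18.7 ± 2.19 CPM untreated. With 20 to 36 footprint counts in a library, AAH1 had wide intervals, of 0.750 to 1.27 for the fold in RNA and 0.656 to 1.37 in footprints. Some alternatives turned the sign of the AAH1 and HPT1 changes.

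AMD1 (YML035C, chromosome XIII, 206428 to 208860, minus strand) encodes AMP deaminase, which converts AMP back to IMP. AMD1 RNA was 115.3, 114.9 and 115.1 CPM after radicicol, against 101.8, 115.1 and 113.5 CPM untreated. Footprints on AMD1 were 120.5, 132.3 and 135.1 CPM after radicicol, against 165.6, 132.1 and 137.7 CPM untreated. The groups overlapped in both measures, and the fold intervals were 0.891 to 1.24 and 0.763 to 1.05. Of the 8 genes, 4 had RNA libraries that did not overlap between the treatments (IMD2, IMD4, GUA1 and APT1), where 30.0% of all genes tested had none. In footprints these were IMD2, IMD3 and GUA1, where 29.4% of all genes had no overlap.

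**Figure D3:**
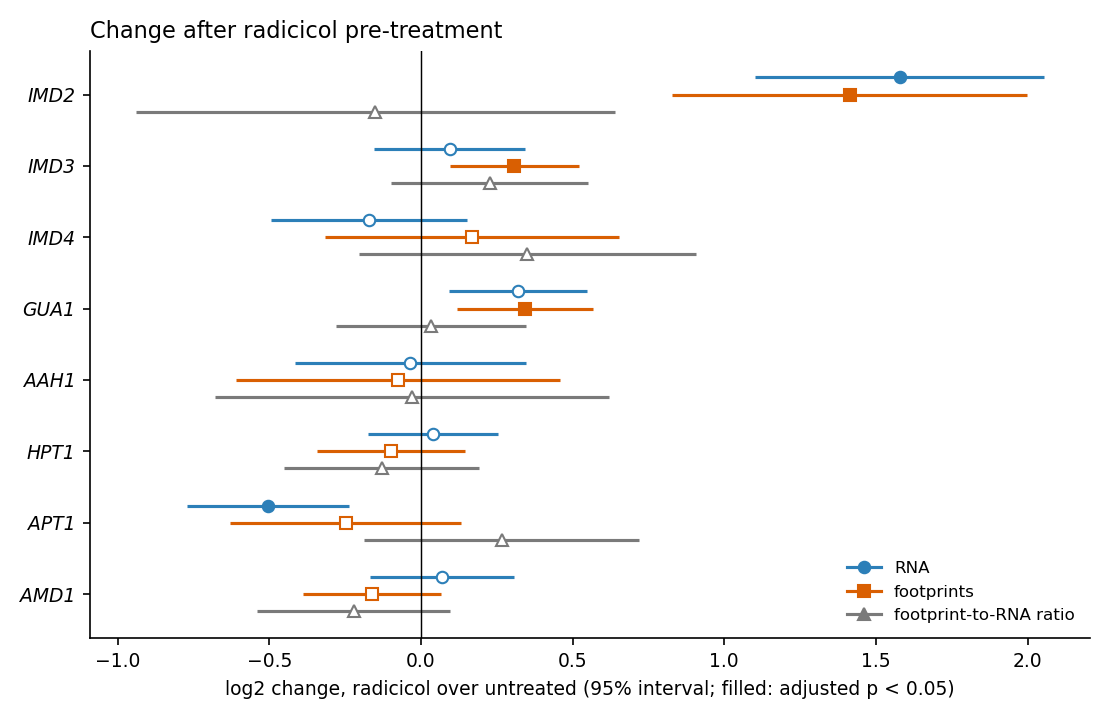
Log2 change (radicicol over untreated) of each gene with its 95% interval, for RNA (circles), footprints (squares) and the footprint-to-RNA ratio (triangles), from models fitted across all genes. Filled symbols passed an adjusted p of 0.05: IMD2 and APT1 in RNA, and IMD2, IMD3 and GUA1 in footprints.

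The ratio of footprints to RNA, often called translational efficiency, was compared between the treatments as an interaction over all 12 libraries. None of the 8 genes was called by edgeR's test, and none had an unadjusted p below 0.05 or was called by DESeq2. Among all 5552 genes tested, 1 was called (0.0180%), the transcription factor gene HAC1. The IMD2 ratio changed by a log2 of -0.15 with a 95% interval of -0.94 to 0.64, so its rises in RNA and in footprints could not be told apart at this depth. The largest estimate was that of IMD4 (0.35, interval -0.21 to 0.91), and the lowest was that of AMD1 (-0.22, interval -0.54 to 0.10). APT1, which fell in RNA but passed no test in footprints, had an estimate of 0.27 with an interval of -0.19 to 0.72, so a difference between its RNA and footprint changes was not shown.

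**Figure D4:**
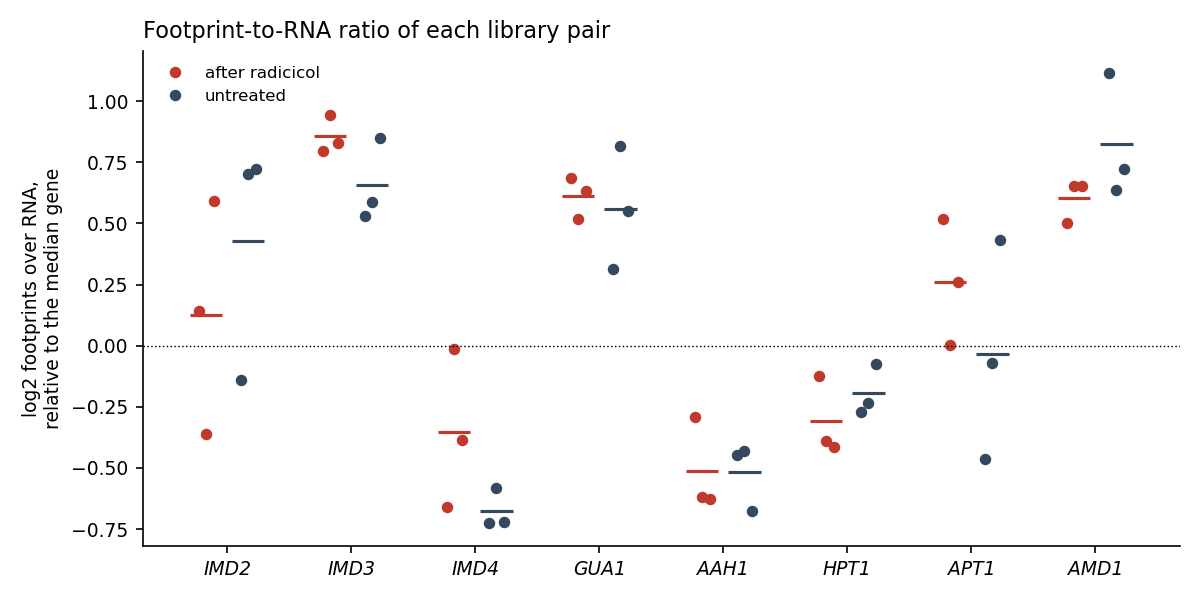
Log2 ratio of footprints to RNA for each of the 8 genes, relative to the median gene of the same pair of libraries, after radicicol (red, left) and untreated (dark, right). Points are pairs of the same number and treatment and lines are means of 3; IMD3, GUA1 and AMD1 lie above the median gene in all 6 pairs, and AAH1, HPT1 and IMD4 lie below it in all 6.

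The mean ratios of the 8 genes spanned a wider range than the changes between treatments. Ratios pair RNA and footprint libraries by number, and whether these share a culture is not stated. IMD3 had a log2 ratio, relative to the median gene, of 0.86 ± 0.08 after radicicol and 0.66 ± 0.17 untreated (SD, n = 3 each). AMD1 stood at 0.60 ± 0.09 after radicicol and 0.82 ± 0.25 untreated, and GUA1 at 0.61 ± 0.08 after radicicol and 0.56 ± 0.25 untreated. The deaminase gene AAH1 was at -0.51 ± 0.19 after radicicol and -0.52 ± 0.14 untreated. IMD4 had -0.35 ± 0.32 after radicicol and -0.68 ± 0.08 untreated, so the paralogs IMD3 and IMD4 stood on opposite sides of the median gene in both treatments. HPT1, at -0.31 ± 0.16 after radicicol and -0.19 ± 0.11 untreated, was also below it. The ratios of IMD2 and APT1 spread on both sides of the median gene, from -0.36 to 0.72 and from -0.46 to 0.52 over the 6 pairs. These ratios were not tested against each other. Those of the IMD genes hold only the reads that could be placed, and IMD4 had 20 to 37 footprint counts in a library. The exons of IMD4 also differed. Summed over the radicicol libraries, exon 1 had 84.8 RNA and 73.9 footprint counts per kilobase, and exon 2 had 185.65 and 55.6. In untreated libraries exon 1 had 69.6 and 41.3, and exon 2 had 139.9 and 48.4. The low ratio of IMD4 was thus more marked in exon 2, on few counts, and this difference was not tested.

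Per kilobase of coding length, HPT1 was the most abundant of the 8 in every group, with 329.6 ± 10.9 CPM per kilobase of RNA after radicicol and 323.3 ± 34.2 untreated (SD, n = 3 each). APT1, GUA1 and IMD3 came next after radicicol, with 94.3, 92.9 and 83.1 CPM per kilobase of RNA, and the libraries of APT1 and GUA1 overlapped. In untreated RNA APT1 stood alone at 133.3, above IMD3 and GUA1 at 76.7 and 75.2, which overlapped. AMD1 followed with 47.3 after radicicol and 45.3 untreated, and AAH1 with 32.7 after radicicol and 35.4 untreated, where the libraries of AMD1 and AAH1 overlapped only in the untreated group. At the low end, IMD4 had 22.9 and IMD2 19.7 CPM per kilobase of RNA after radicicol, and their libraries overlapped. In untreated RNA IMD4 had 25.5 and IMD2 5.96, without overlap. In footprints IMD2 stood at 15.97 CPM per kilobase after radicicol, beside AAH1 at 17.1 and IMD4 at 13.3, and at 5.86 untreated, below AAH1 at 17.9 and IMD4 at 11.7. Among all genes tested, the RNA level of IMD2 per kilobase was at the 18.5th percentile after radicicol and at the 2.03rd untreated. Levels of the IMD genes hold only the reads that could be placed.

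Other genes of purine metabolism were read from lists chosen, like the 8 genes, with earlier results of these data known. Of 18 genes of purine interconversion, salvage and transport, 17 were tested, and 2 of them fell in RNA while 0 rose (median log2 -0.03). The called share was 11.8%, where 13.2% of all genes tested were called in RNA. FCY21, a relative of the purine-cytosine permease gene FCY2, fell to 10.0 ± 4.41 CPM after radicicol, against 27.8 ± 4.12 CPM untreated (edgeR adjusted p = 0.000105). APT2, the paralog of APT1, fell to 43.8 ± 5.59 CPM after radicicol, against 71.5 ± 14.8 CPM untreated (adjusted p = 0.00257 in the same test). Its log2 change was -0.71, beside -0.50 for APT1. The APT2 call ended without untreated replicate 1 (adjusted p = 0.0562), and the call of FCY21 held in all 12 alternatives. Footprints on APT2 and FCY21 had log2 changes of -0.16 (SE 0.15) and -1.14 (SE 0.38) that did not pass (adjusted p = 0.567 for APT2, and for FCY21 a value just above the threshold that passed with RLE factors, at 0.0495).

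In footprints, where 13.4% of all genes tested were called, 3 of the 17 (17.6%) rose while 0 fell (median log2 0.16). They were SAH1 (log2 0.35, SE 0.08), whose enzyme releases adenosine from S-adenosylhomocysteine, the adenylate kinase gene ADK1 (0.28, SE 0.08) and the purine nucleoside phosphorylase gene PNP1 (0.42, SE 0.14). SAH1 was called in all 12 alternatives. PNP1 held in 4 of them, being lost with DESeq2 and whenever 1 library was left out, and ADK1 held in 6, being lost with DESeq2 and without radicicol replicate 1 or 2 or untreated replicate 1 or 3. With upper-quartile factors PNP1 and ADK1 were lost too, and SAH1 was the only gene of the list that rose. In that setting 3 fell in footprints: FCY2 (log2 -0.42), the guanine deaminase gene GUD1 (-0.51) and FCY21 (-1.18). GUK1, which encodes the guanylate kinase that acts after GUA1 and was singled out after its values were seen, had log2 changes of 0.08 (SE 0.10) in RNA and 0.21 (SE 0.12) in footprints and passed in neither. The medians over all genes tested were -0.00 in RNA and -0.01 in footprints.

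The list of de novo synthesis, which holds the route to IMP and also ADE12 of the adenine branch, moved more widely. Of 16 genes tested, 10 rose in RNA and 0 fell, and 10 rose and 1 fell in footprints, with medians of 0.75 and 0.70. The called shares were 62.5% in RNA and 68.8% in footprints, where 13.2% and 13.4% of all genes tested were called. The one that fell was PRS1 (log2 -0.39, SE 0.12), a phosphoribosyl pyrophosphate synthetase gene outside the naming rule, chosen after its values were seen. Its call ended with DESeq2 and without radicicol replicate 2 or untreated replicate 2 or 3, while the 10 genes that rose were called in all 12 alternatives in RNA and in footprints. ADE12, which encodes adenylosuccinate synthetase and opens the adenine branch at the same IMP that IMP dehydrogenase uses, had 632.2 ± 33.0 CPM of RNA after radicicol and 290.4 ± 53.4 CPM untreated (SD, n = 3 each). Its log2 change was 1.13 (SE 0.12) in RNA and 1.27 (SE 0.09) in footprints. The other genes of the list with the lowest adjusted p in RNA were ADE5,7 (log2 1.16, SE 0.10), ADE1 (1.06, SE 0.11) and ADE17 (0.98, SE 0.11). In footprints they were ADE1 (1.21, SE 0.10), ADE5,7 (1.06, SE 0.09) and ADE2 (0.98, SE 0.09). ADE17 encodes an enzyme that makes IMP itself. Its paralog ADE16, outside the naming rule, had log2 changes of -0.01 (SE 0.10) in RNA and -0.13 (SE 0.08) in footprints and was called in neither. Both routes out of IMP thus held a gene that rose in RNA and footprints, ADE12 towards AMP and IMD2 towards GMP. None of the purine regulators BAS1, PHO2 and SAF1 was called in RNA or footprints by edgeR's test. At an unadjusted p below 0.05 the counts were 1 in RNA (BAS1, log2 -0.36, SE 0.14) and 0 in footprints, and DESeq2 called 0. Without radicicol replicate 1, BAS1 was called lower in RNA (log2 -0.51, adjusted p = 0.0381).

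**Figure D5:**
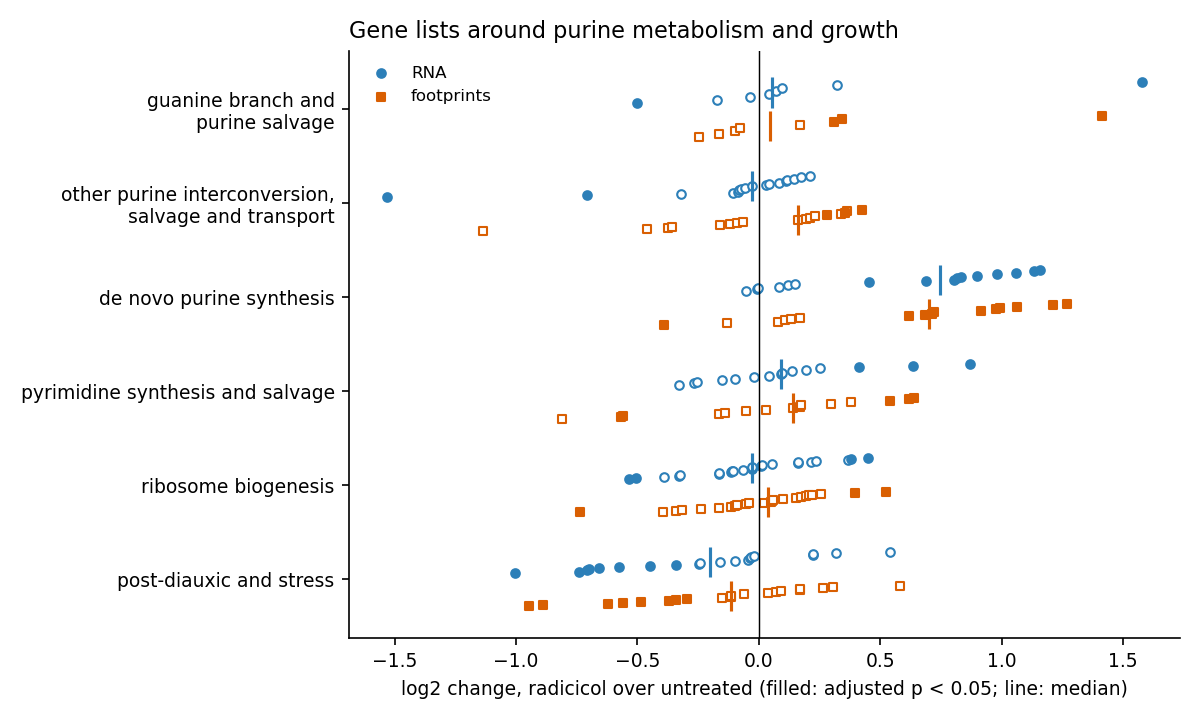
Log2 change (radicicol over untreated) of every tested gene of 6 lists, in RNA (circles) and footprints (squares), with the list's median as a vertical line and filled symbols for an adjusted p below 0.05. In the top row IMD2 lies at 1.58 and 1.41, far from the other 7 genes, which lie between -0.50 and 0.34.

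Pyrimidine genes served as a neighbouring pathway. Of 15 tested, 3 rose in RNA (median log2 0.09), and 3 rose and 1 fell in footprints (median 0.14). The called shares were 20% in RNA and 26.7% in footprints, where 13.2% and 13.4% of all genes tested were called. The risers in both were the cytosine deaminase gene FCY1 (log2 0.87 in RNA, 0.62 in footprints), the dihydroorotase gene URA4 (0.41, 0.54) and the CTP synthase gene URA7 (0.63, 0.64). Footprints fell on the dihydroorotate dehydrogenase gene URA1 (log2 -0.56). Only FCY1 in RNA, and URA4 and URA1 in footprints, were called in all 12 alternatives. DESeq2 called 1 gene higher in each measure, as did the fits without radicicol replicate 1 in RNA and without radicicol replicate 2 in footprints.

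Genes linked to growth and to stress were read beside these results, since the density at harvest is not known. Ribosome biogenesis genes showed no common direction, with 2 of 24 higher (NOP7, RPA190) and 2 lower (HCA4, PWP2) in RNA, and 2 higher (RPA190, NOP58) and 1 lower (UTP4) in footprints. Called shares of 16.7% in RNA and 12.5% in footprints were near those of all genes tested (13.2% and 13.4%). In RNA these counts moved with single libraries, from 0 higher (without radicicol replicate 1 or 2 or untreated replicate 1) to 3 (without untreated replicate 3), and from 0 lower (without radicicol replicate 2 or 3 or untreated replicate 2 or 3) to 4 (without untreated replicate 1). In footprints 1 was higher without radicicol replicate 1 or 2 or untreated replicate 2, and the lower count ran from 0 (without untreated replicate 3) to 2 (without radicicol replicate 1). The summed level of the 24 genes lay between 2014 and 2319 CPM of RNA after radicicol and between 1846 and 2383 CPM untreated. Of the post-diauxic and stress genes, 8 of 20 (40%) fell and 0 rose, in RNA and likewise in footprints. Over the alternatives up to 1 was called higher in RNA (without the filter) and up to 2 in footprints (without untreated replicate 1). The lower count stayed at 7 to 8 in RNA and at 8 in footprints. In RNA the lowest adjusted p were those of SPI1 (log2 -1.01), the Hsp70 genes SSA3 (-0.74) and SSA4 (-0.58), and DDR2 (-0.70). The summed RNA level of the 20 genes lay between 29786 and 31587 CPM after radicicol and between 37609 and 46116 CPM untreated. In footprints the sum was 52897 to 53975 CPM after radicicol and 63866 to 70179 CPM untreated. HSP26 was a large part of both sums, with means of 11055 CPM of RNA after radicicol and 18080 CPM untreated. Footprints on HSP26 averaged 22478.5 CPM after radicicol and 31438 CPM untreated. The part of these growth and stress genes in the changes of IMD2, GUA1, IMD3 and APT1 was not tested.

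For the 4 genes called in RNA or footprints, the most similar profiles were sought among 5062 other genes over all 12 libraries, by the Pearson correlation of log2 CPM centred on the mean of each library type. IMD2 was most like BUD3 (r = 0.973), a bud site selection gene, and MSB3 (r = 0.963), a Rab GTPase-activating protein gene. The changes of both were far smaller than that of IMD2, with log2 0.34 (SE 0.13) for BUD3 and 0.39 (SE 0.13) for MSB3 in RNA. IMD3 was nearest to YIP1 (r = 0.913) and the G1 cyclin gene CLN2 (r = 0.893). GUA1 was nearest to YKL033W-A (r = 0.964) and the ribosomal protein gene RPS1B (r = 0.954), and APT1 to the ribosomal protein gene RPL2A (r = 0.914) and MAS2 (r = 0.899), a mitochondrial processing protease gene. RPS1B and RPL2A have close copies, so their counts are uncertain. These correlations describe libraries that share a treatment and, in each kind, a set of scaling factors.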

How the data were processed

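RNA and ribosome-protected fragments were counted in 12 libraries. The authors deposited whole-number counts per exon feature. Per the file headers, featureCounts 1.6.2 assigned forward-strand reads to an R64-1-1 annotation with an added plasmid and left out reads of several features or places. The build sacCer3 and the tools STAR 2.7.1a, cutadapt 1.18 and SAMtools 1.9 are named in the submitters' processing notes. A deposited combined table of counts served as an alternative.

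Counts of 7557 features were summed to 7130 identifiers. R 4.3.3 with edgeR 4.0.16 was used: filterByExpr (minimum count 10, minimum total 15), TMM factors, robust quasi-likelihood F tests and Benjamini-Hochberg adjustment, with calls at 0.05. Footprints and RNA had separate fits of 6 libraries each, and the ratio was fitted as an interaction over 12. Ratio levels used a pseudocount of 0.5 counts. SE and 95% intervals come from the fits. P-values measure the spread between these libraries, part of which may be technical. Alternatives were RLE and upper-quartile factors, no filter, DESeq2 1.42.0, a replicate block, a culture term, the combined table and leaving out each library. Isozyme shares used exact permutation tests (scipy 1.17.1).

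The 8 genes, the gene lists and the tests were chosen with earlier results of these data known. Named were all 8 genes, up to 4 called genes of each other list with the lowest adjusted p, and the 2 most similar genes for each called one. Promoter motif searches and a count of unique sequence windows were not run.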

Additional observations from a re-analysis of the deposited data

How the results depend on the processing

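Of 296 recomputed changes of single genes, 274 kept their side of the threshold, 20 lost a call, 1 gained one and 1 moved, that of HPT1 in footprints, to a log2 of 0.02 without untreated replicate 3. No called change turned its sign. Of the changes that were not called, those of AAH1 and HPT1 and the ratios of IMD2 and GUA1 did so under some alternatives, IMD2 to 0.17 and GUA1 to -0.09 at most. IMD2 was called in RNA and in footprints in all 12 alternatives. The calls that ended were those of APT1 in RNA and of IMD3 and GUA1 in footprints, and the new one was GUA1 in RNA. DESeq2 called 492 genes in RNA and 454 in footprints and left 1 of the 8 genes called in RNA and 1 in footprints, and upper-quartile factors left 1 in footprints. Leaving out 1 library gave 1 to 3 of the 8 genes called in RNA, 1 to 2 in footprints and 0 for the ratio, and 407 to 743 genes in RNA, 442 to 667 in footprints and 0 to 3 for the ratio among all genes. The lowest totals were reached without radicicol replicate 2 in RNA and footprints, and for the ratio 3 genes were called without radicicol replicate 1 and 0 without untreated replicate 3. Among the 8 genes, RNA calls numbered 1 without radicicol replicate 3, and footprint calls numbered 2 without untreated replicate 2 and 1 without each of the other 5 libraries. For the ratio, 6 genes were called without a filter, 2 with the replicate block and 29 with a culture term, none of them among the 8. The cause of these shifts was not tested. The IMD2 share differed by 8.75 to 11.5 points in RNA and 4.98 to 6.74 points in footprints with 1 library left out, where no exact p below 0.2 is possible. With upper-quartile factors 45.8% of the RNA calls were higher (54.2% with TMM). Shares scaled by unique 30-base windows were not run.

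The labels share replicate numbers between the treatments, and the pairing was checked. Deviations of same-numbered RNA libraries correlated at 0.00779 to 0.0738 and of footprint libraries at -0.14 to -0.00509. With 3 libraries in a group, this check cannot show whether the numbers pair cultures. The main fits had no term for the number, and the replicate block served as an alternative. RNA and footprint libraries of the same number and treatment correlated at 0.115 to 0.193 after radicicol and at 0.0336 to 0.101 untreated. In RNA each radicicol library correlated best with its own number, a hint from the data only. With the replicate block, 673 genes were called in RNA and 628 in footprints, with 2 and 1 of the 8 genes among them. IMD3 (adjusted p = 0.0808) and GUA1 (0.0545) were not called in footprints in that edgeR fit, and the IMD2 share kept its difference (exact p = 0.25, the smallest for 3 pairs). Depth limits IMD2 and AAH1 most, and 3 counts in a library correspond to 1.21 to 4.07 CPM.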
